A study of Rattus norvegicus with 6 samples.

Results

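The bone morphogenetic protein (BMP) and transforming growth factor beta (TGF-beta) genes described here are 4 BMP ligands (Bmp2, Bmp4, Bmp6 and Bmp7), the BMP antagonist Grem1 (Gremlin 1), the 3 TGF-beta ligands (Tgfb1, Tgfb2 and Tgfb3) and the receptor Tgfbr2. They were chosen by name, and 8 of the 9 were matched to a probeset annotated with 1 gene symbol, out of 14506 genes represented in the same way. Tgfbr2 had no such probeset and was not analysed here. Each of the 8 genes had 1 probeset. Expression was measured in glomeruli from male adult Sprague-Dawley rats on Affymetrix whole-transcript rat arrays, with an array for each preparation. Of the 6 arrays, 3 held PEC-enriched isolates (capsulated glomeruli retained on the 90 µm sieve, which keep Bowman's capsule and its parietal epithelial cells, PECs) and 3 held PEC-deprived isolates (decapsulated glomeruli collected on the 75 µm sieve). No treatment or genetic change was applied to either group, and the tissue was not cultured. Both fractions are mixtures by the study's own account, the PEC-enriched more so. Every PEC-enriched preparation held fragments of tubules and decapsulated glomeruli, the latter nearly as common as capsulated ones in the least enriched preparation. PEC-deprived preparations held few or no capsulated glomeruli, and not all held tubule fragments. Each preparation came from an individual rat and the methods name 3 animals, without stating whether these gave both fractions or only one.

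BMPs and TGF-betas are secreted dimers of one superfamily. They bind pairs of type I and type II serine-threonine kinase receptors, which phosphorylate SMAD transcription factors, SMAD1, SMAD5 and SMAD9 for BMPs and SMAD2 and SMAD3 for TGF-betas. TGF-betas are secreted in a latent form, held in the matrix by latent TGF-beta binding proteins and released by integrins or thrombospondin 1, while BMPs are held back by secreted antagonists such as Gremlin 1. In the kidney BMP7 is needed for nephron formation and is known as a protective factor in the adult, and TGF-beta 1 is known for driving matrix deposition in glomerular disease.

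Marker genes placed the isolates as the labels do, with exceptions on individual arrays. The defining PEC markers Cldn1 and Pax2 had means higher by 1.38 and 0.70 on the log2 scale in PEC-enriched isolates, without overlap between the groups, and all 15 measured PEC markers had a higher mean. Several of these markers were picked by the study on the same arrays, so they are not independent evidence. Tubule markers moved with them: all 15 proximal tubule markers (median log2 fold change 1.02), all 9 markers of the thick ascending limb (1.45) and 11 of 12 markers of the distal tubule and collecting duct (0.62) had higher means in PEC-enriched isolates. All 13 glomerular endothelium markers (median -0.48) and all 10 leukocyte markers (median -0.29) had lower means. Podocyte markers were split, with 5 higher and 5 lower and a median of 0.02. PEC-enriched replicate 1 stood apart from the other PEC-enriched arrays in endothelium markers, with a mean of 0.09 relative to the average of all arrays against -0.42 and -0.41 in replicates 2 and 3, and in leukocyte markers, with 0.11 against -0.41 and -0.16. In mesangial and smooth muscle markers it was at 0.23 against -0.18 and -0.18, and in podocyte markers at -0.24 against 0.15 and 0.16. PEC-deprived replicate 1 stood apart in proximal tubule markers, with 0.17 against -1.13 and -0.50. So it did in thick ascending limb markers (-0.18 against -1.28 and -1.02) and distal tubule and collecting duct markers (-0.02 against -0.58 and -0.58). In PEC markers it was at -0.19 against -0.71 and -0.52. For this reason differences are also given without these arrays where they matter.

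**Figure D1:**
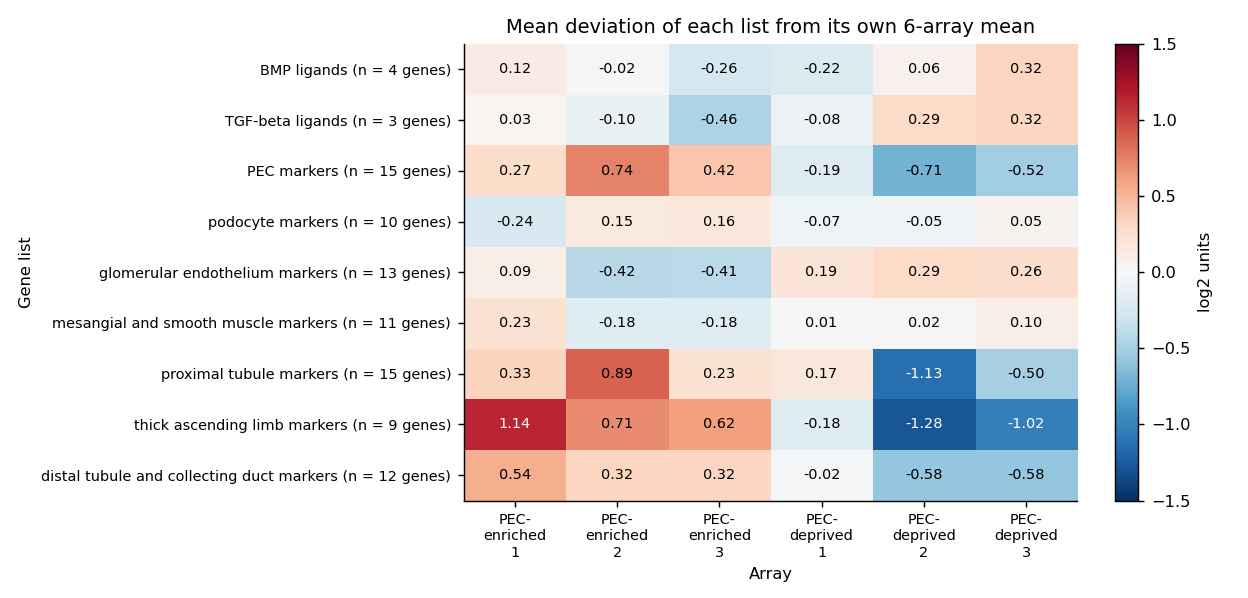
Mean deviation of each gene list (rows, with the number of genes) from its own mean over the 6 arrays (columns), in log2 units, red for higher and blue for lower. TGF-beta ligands were at -0.46 in PEC-enriched replicate 3 and at 0.29 and 0.32 in PEC-deprived replicates 2 and 3, while podocyte markers stayed between -0.24 and 0.16.

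Promoter sequences are shown for 4 genes of the pathway, so that the letters can be read beside the values that follow. Tgfb1 and Grem1 are a measured ligand and the antagonist, and the RefSeq promoter window shown for each lies wholly before the annotated gene. Id1 and Id3 are BMP targets that had lower means together. Of the 9 genes named at the outset, 7 were matched to a RefSeq promoter, and the windows of the other ligands are not shown. Each stretch ends at the base before the annotated gene on GRCr8, which was used for sequence and names only, and is written 5′ to 3′. Capitals mark a GC box (GGGCGG, or CCGCCC on the other strand) or the palindromic GC-rich SMAD element GGCGCC.
Tgfb1 (chr1:90324062-90324311, + strand): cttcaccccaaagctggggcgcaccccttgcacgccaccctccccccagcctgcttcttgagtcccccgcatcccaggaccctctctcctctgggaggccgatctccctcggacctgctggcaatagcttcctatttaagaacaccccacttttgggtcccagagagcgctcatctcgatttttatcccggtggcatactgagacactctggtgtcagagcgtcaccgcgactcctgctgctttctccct
Grem1 (chr3:120978320-120978569, - strand): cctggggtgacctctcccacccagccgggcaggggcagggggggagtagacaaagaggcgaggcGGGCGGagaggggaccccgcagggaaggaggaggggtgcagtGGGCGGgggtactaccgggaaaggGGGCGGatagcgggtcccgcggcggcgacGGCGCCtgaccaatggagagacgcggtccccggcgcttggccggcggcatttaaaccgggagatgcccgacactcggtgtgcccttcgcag
Id1 (chr3:161671314-161671524, + strand): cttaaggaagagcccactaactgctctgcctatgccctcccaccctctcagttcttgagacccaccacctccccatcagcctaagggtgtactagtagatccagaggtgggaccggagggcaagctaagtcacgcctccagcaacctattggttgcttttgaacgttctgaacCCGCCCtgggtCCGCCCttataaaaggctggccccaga
Id3 (chr5:153656041-153656252, + strand): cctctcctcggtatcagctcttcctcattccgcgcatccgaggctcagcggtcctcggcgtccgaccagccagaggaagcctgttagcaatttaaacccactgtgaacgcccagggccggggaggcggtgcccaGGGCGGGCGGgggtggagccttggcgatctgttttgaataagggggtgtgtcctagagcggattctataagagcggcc
The SMAD half-site CAGAC, which reads GTCTG from the opposite strand, was searched as well and was found in none of the 4 stretches. Over 33469 RefSeq promoters, 42.9% hold it within the 250 bases before the start and 37.9% within the first 211 of them, the length shown for Id1. The Grem1 stretch holds 3 GC boxes and 1 GGCGCC, which occur in 30.5% and 8.69% of promoters at 250 bases. Id1 and Id3 hold 2 GC boxes each, those of Id3 overlapping, and a GC box occurs in 26.0% of promoters at 211 bases and 26.1% at the 212 of Id3. The Tgfb1 stretch holds none of the 3 motifs. A match describes letters only and is not a measured binding site.

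None of the 8 genes differed between the isolates past the threshold. By limma 0 of 8 had an adjusted p under 0.01 over all 29215 probesets, where 0% of probesets passed. At an unadjusted p under 0.05 there was 1 of 8, Tgfb3, beside 13.6% of all genes, and the regularised Bayesian test named in the methods called 0 of 8 beside 1.65% of all genes. Of the 8 genes 6 had a lower mean in PEC-enriched isolates and 2, Bmp7 and Grem1, a higher one, with a median log2 fold change of -0.23. Over all genes 55.2% had a lower and 44.8% a higher mean, and the median was -0.02. The arrays of the groups did not overlap in 1 of the 8 genes, beside 18.7% of all genes. In bulk isolates fewer cells of a type and less RNA per cell cannot be told apart. A p that misses the threshold does not show equal expression, so the 95% interval of each difference is given. Levels are RMA log2 values and differences are PEC-enriched minus PEC-deprived on the log2 scale. Levels of different genes depend on their probes and are not compared.

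**Figure D2:**
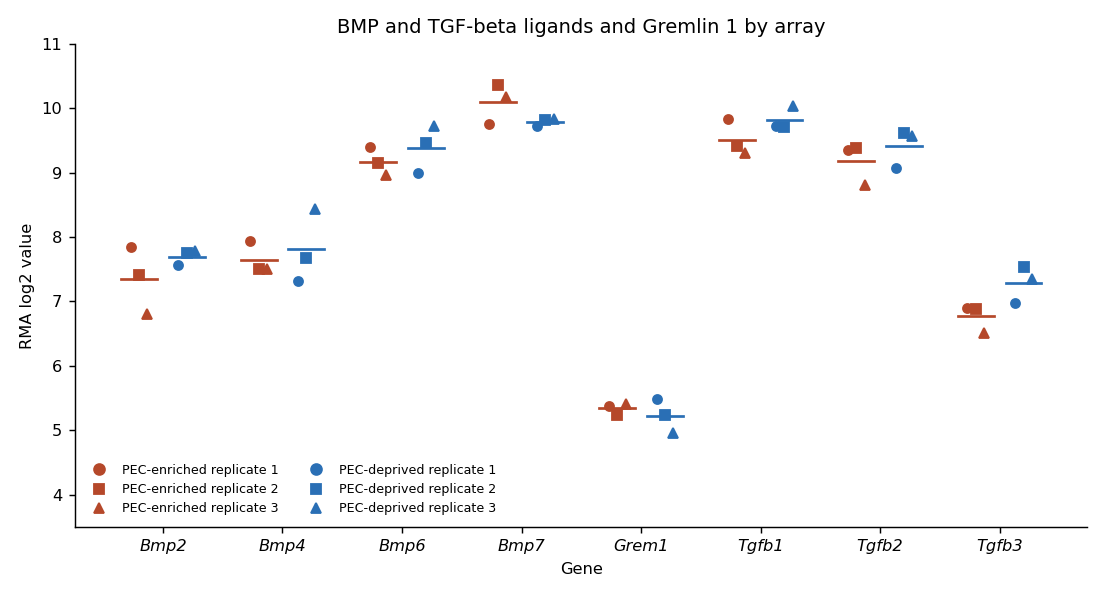
RMA log2 value (y axis) of the 8 measured genes (x axis), with 1 point for each array, its symbol giving the replicate number, and short lines at the group means. The groups stand apart in Tgfb3 and overlap in the other 7 genes. In Bmp7, PEC-enriched replicates 2 and 3 (10.36 and 10.18) lie above every PEC-deprived array and replicate 1 (9.76) among them.

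Bmp7 was the ligand with a higher mean in PEC-enriched isolates. Its level was 9.76, 10.36 and 10.18 in PEC-enriched replicates 1 to 3 and 9.73, 9.82 and 9.83 in PEC-deprived replicates 1 to 3. PEC-enriched replicates 2 and 3 were above all PEC-deprived arrays, while replicate 1 lay within their narrow range. The means were 10.10 ± 0.304 and 9.79 ± 0.0529 (SD, n = 3 each), which gave a log2 fold change of 0.31 or 1.24-fold (95% interval -0.03 to 0.65, limma adjusted p = 0.543). Without PEC-enriched replicate 1 the difference was 0.48 (limma adjusted p = 0.119), and it ran from 0.18 to 0.48 over the arrays left out. PEC markers were also higher on PEC-enriched replicates 2 and 3 (0.74 and 0.42 relative to the average) than on replicate 1 (0.27), and podocyte markers too (0.15 and 0.16, against -0.24). On PEC-deprived replicates 1 to 3 PEC markers were at -0.19, -0.71 and -0.52, highest on replicate 1, where Bmp7 was lowest. Podocyte markers were at -0.07, -0.05 and 0.05 there. The part of these cells in the Bmp7 values was not tested.

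The other BMP ligands had lower means and overlapping groups. Bmp2, a ligand known from endothelium and bone, was at 7.85, 7.41 and 6.80 in PEC-enriched and at 7.56, 7.75 and 7.78 in PEC-deprived replicates. Its highest and lowest arrays were both PEC-enriched, replicates 1 and 3. The means of Bmp2 were 7.35 ± 0.529 and 7.69 ± 0.122 (SD, n = 3 arrays each), a difference of -0.34 (95% interval -0.88 to 0.20, limma adjusted p = 0.728) that shrank to -0.06 without PEC-enriched replicate 3. Bmp4, which patterns the ureteric bud and its stroma, was at 7.94, 7.51 and 7.51 in PEC-enriched and at 7.32, 7.68 and 8.43 in PEC-deprived replicates. PEC-deprived replicate 3 was its highest array and PEC-deprived replicate 1 its lowest, so the spread within that group exceeded the difference of -0.16 (95% interval -0.76 to 0.45, limma adjusted p = 0.917). Without PEC-deprived replicate 3 the Bmp4 difference changed direction, to 0.15.

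Bmp6, known for inducing hepcidin in iron balance, was at 9.40, 9.15 and 8.97 in PEC-enriched and at 8.99, 9.46 and 9.72 in PEC-deprived replicates. Its means were 9.17 ± 0.215 and 9.39 ± 0.368 (SD, n = 3 arrays each), a difference of -0.22 (95% interval -0.66 to 0.22, limma adjusted p = 0.799). PEC-deprived replicate 1, the lowest array in Bmp4, was next to the lowest here. After each gene's own mean was taken off, Bmp6 was the fifth nearest of 14505 genes to Bmp4 over the 6 arrays, with a mean absolute difference of 0.147 log2 units. Tgfb1 was at rank 52 and Tgfb2 at 3809. Farther from Bmp4 were Bmp2 at rank 6787, Tgfb3 at 8766, Grem1 at 12405 and Bmp7 at 13445, so the BMP ligands did not share 1 pattern.

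Grem1, which encodes a secreted antagonist that binds BMP2, BMP4 and BMP7, showed little difference. Its level was 5.37, 5.24 and 5.41 in PEC-enriched and 5.49, 5.23 and 4.95 in PEC-deprived replicates, and all 6 values lay below the array medians of 6.69 to 6.75. The highest and lowest arrays were both PEC-deprived. The difference was 0.12 (95% interval -0.21 to 0.44, limma adjusted p = 0.873) and turned to -0.02 without PEC-deprived replicate 3. Whether the Grem1 probeset exceeds background is unknown here, since detection calls were not used.

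All 3 TGF-beta ligands had lower means in PEC-enriched isolates. Tgfb3 was at 6.90, 6.89 and 6.51 in PEC-enriched and at 6.97, 7.54 and 7.35 in PEC-deprived replicates. Every PEC-enriched array lay below every PEC-deprived array, although PEC-deprived replicate 1 was close to PEC-enriched replicates 1 and 2. The means of Tgfb3 were 6.77 ± 0.219 and 7.29 ± 0.291 (SD, n = 3 each), which gave a log2 fold change of -0.52 or 1.43-fold lower (95% interval -0.91 to -0.13, limma adjusted p = 0.333). This was the largest absolute difference among the 8 genes, and it ran from -0.68 to -0.39 over the arrays left out.

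Tgfb1, the isoform best known from glomerular scarring, was at 9.83, 9.42 and 9.30 in PEC-enriched and at 9.72, 9.71 and 10.03 in PEC-deprived replicates. PEC-enriched replicates 2 and 3 lay below all PEC-deprived arrays and replicate 1 among them. The difference in Tgfb1 was -0.31 (95% interval -0.67 to 0.06, limma adjusted p = 0.585), and it ran from -0.46 without PEC-enriched replicate 1 (limma adjusted p = 0.195) to -0.20 without PEC-enriched replicate 3 or PEC-deprived replicate 3. Endothelium and leukocyte markers divided the PEC-enriched arrays in the same way. Tgfb2 was at 9.35, 9.39 and 8.81 in PEC-enriched and at 9.07, 9.62 and 9.57 in PEC-deprived replicates. PEC-deprived replicate 1 fell among the PEC-enriched arrays, and the difference was -0.24 (95% interval -0.69 to 0.22, limma adjusted p = 0.785).

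The array order was uneven across these genes. PEC-enriched replicate 3 was the lowest of the 6 arrays in 5 of 8 genes (Bmp2, Bmp6, Tgfb1, Tgfb2 and Tgfb3), beside 20.6% of all genes. PEC-deprived replicate 3 was the highest in 3 of 8, Bmp4, Bmp6 and Tgfb1. The share of all genes highest on that array was not computed, so this count has nothing to be set against. PEC-enriched replicate 1 and PEC-deprived replicate 1 were also left out together, a choice made after the data were seen. The 8 genes then kept their directions with larger differences, 0.45 for Bmp7, -0.74 for Tgfb3, -0.51 for Tgfb1 and -0.66 for Bmp2, and 0 of 8 passed in limma. Both arrays had stood nearer the other group in some markers, so leaving them out tends to widen differences and is not support. Without PEC-enriched replicate 3 alone the differences of the 8 genes all shrank, to -0.06 for Bmp2 and -0.05 for Tgfb2. Summed on the linear scale, glomerular endothelium markers ranged from 22550 to 32180 in PEC-enriched and from 34238 to 37768 in PEC-deprived arrays, and leukocyte markers from 2346 to 4048 and from 3779 to 4584. The part of either in the lower ligand means was not tested.

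The 3 genes whose levels ranged over more than 1 log2 unit across the arrays were Bmp2, Bmp4 and Tgfb3. Nearest to Bmp2 were Naaa, which encodes a lysosomal amidase, Itga4, the integrin alpha 4 chain of leukocytes, and Foxo1, a forkhead transcription factor, with mean absolute differences of 0.0581, 0.0651 and 0.0684 log2 units. Nearest to Bmp4 were Csf3r, the granulocyte colony-stimulating factor receptor (0.116), Cdca7 (0.121) and the cell cycle factor E2f1 (0.122). Nearest to Tgfb3 were Ankrd12 (0.078), the phosphoinositide 3-kinase adaptor Pik3ap1 (0.0844) and Csgalnact1, a chondroitin sulfate synthesis enzyme (0.0848). These lists compare 6 arrays only, are descriptive and carry no test.

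Other genes of the pathway were read from lists written by role, with earlier results of these data known. Counts here and in the paragraphs that follow describe these lists and are not independent support. Of 111 listed genes 94 were measured, and PEC-enriched means were above PEC-deprived means in 46 and below them in 48, with -0.01 as the median difference. By limma 0 of 94 passed an adjusted p under 0.01, and 20 (9 higher, 11 lower) had an unadjusted p under 0.05, which is 21.3% beside 13.6% of all genes. The groups did not overlap in 20 of 94 genes (11 higher, 9 lower), or 21.3%, beside 18.7% of all genes. The regularised Bayesian test called 3 of 94, Sostdc1, Itgb6 and Tagln, beside 1.65% of all genes. All 3 were higher, as were 205 of the 239 genes it called in all. On simulated data the share of false calls exceeded 0.01 for this test and, by less, for limma. Those data were drawn with limma's own variances, which favours limma. Of 22 other ligands 8 had a higher and 14 a lower mean, and the groups overlapped in all of them. Bmp3, a BMP that opposes osteogenic signals, had the largest difference there, -0.54 (95% interval -0.96 to -0.11, limma adjusted p = 0.357), followed by Gdf11 at -0.23 (-0.10 without PEC-enriched replicate 3) and Inhbc at -0.16 (-0.07 without PEC-enriched replicate 2).

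**Figure D3:**
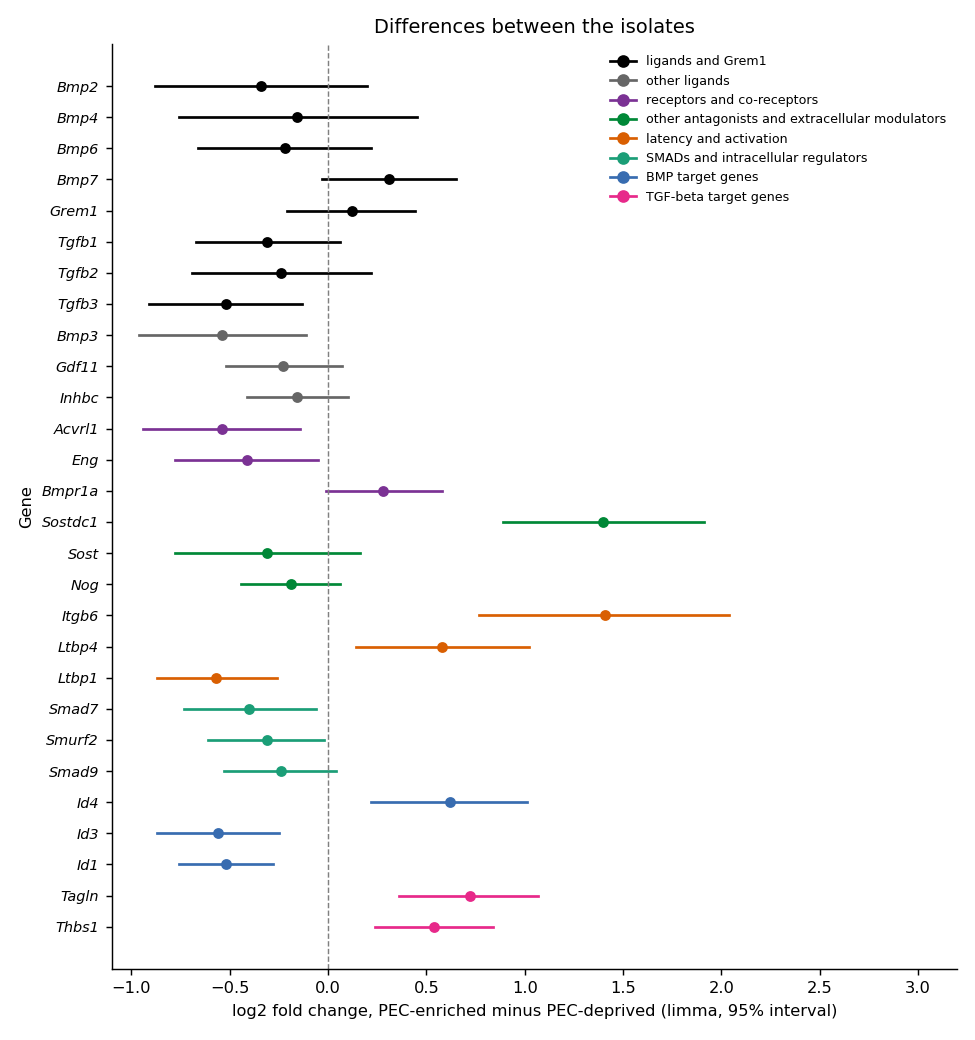
log2 fold change (x axis, point) with its 95% interval (line) for the 8 measured genes and for the 3 genes with the largest absolute difference in each pathway list (y axis), coloured by list. Sostdc1 (1.40) and Itgb6 (1.41) lie farthest to the right, while Acvrl1, Ltbp1, Id3 and Tgfb3 lie between -0.57 and -0.52. Smad7 and Thbs1 stand in several lists and are drawn once, with the SMADs and with the TGF-beta targets.

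Among the secreted antagonists the largest difference belonged to Sostdc1, also known as USAG-1, an antagonist that binds BMP7 and is known from the distal nephron. It was at 8.25, 7.65 and 7.59 in PEC-enriched and at 6.80, 6.12 and 6.37 in PEC-deprived replicates. All PEC-enriched arrays stood above all PEC-deprived arrays, by at least the distance between 7.59 and 6.80. The means were 7.83 ± 0.367 and 6.43 ± 0.347 (SD, n = 3 each), which gave a log2 fold change of 1.40 or 2.64-fold (95% interval 0.89 to 1.91, limma adjusted p = 0.152). It passed the regularised Bayesian test (adjusted p = 0.000108) and ran from 1.19 to 1.59 over the arrays left out. Thick ascending limb markers, summed on the linear scale, were at 5301 to 8176 in PEC-enriched and at 878 to 2491 in PEC-deprived arrays, and the highest array in both was PEC-enriched replicate 1. The part of tubule RNA in the Sostdc1 values was not tested. Of the other antagonists and modulators 12 had a higher and 3 a lower mean. Sost, the related sclerostin gene, was at -0.31 (limma adjusted p = 0.715), and at -0.12 without PEC-deprived replicate 3. Nog, which encodes noggin, was at -0.19 (limma adjusted p = 0.649), with overlapping groups in both genes.

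Genes listed for the holding and release of latent TGF-beta were divided. Itgb6, the beta 6 chain of an epithelial integrin that activates latent TGF-beta, was at 7.64, 8.22 and 7.71 in PEC-enriched and at 6.91, 5.81 and 6.62 in PEC-deprived replicates. The groups were apart. The lowest array was PEC-deprived replicate 2, which was also lowest in PEC, proximal tubule and thick ascending limb markers. The highest was PEC-enriched replicate 2, also highest in PEC and proximal tubule markers but not in thick ascending limb markers. The part of PECs or of tubule RNA in the Itgb6 values was not tested. The log2 fold change of Itgb6 was 1.41 or 2.65-fold (95% interval 0.77 to 2.04, limma adjusted p = 0.166), with an adjusted p of 0.000352 in the regularised Bayesian test. Itgb8, whose product also activates TGF-beta, had a difference of 0.56 (limma adjusted p = 0.427, and 0.31 without PEC-enriched replicate 2) and Thbs1, which encodes thrombospondin 1, one of 0.54 (limma adjusted p = 0.216), both without overlap.

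The latent TGF-beta binding proteins ran in both directions, with no overlap in any of the 4. Ltbp1 was at 10.31, 9.91 and 9.83 in PEC-enriched and at 10.63, 10.57 and 10.55 in PEC-deprived replicates. The PEC-deprived arrays lay close together and above every PEC-enriched array, and the difference was -0.57 (95% interval -0.87 to -0.26, limma adjusted p = 0.21). Ltbp4 had a higher mean by 0.58 (limma adjusted p = 0.338, and 0.35 without PEC-enriched replicate 2), Ltbp2 by 0.42 (limma adjusted p = 0.322) and Ltbp3 by 0.24 (limma adjusted p = 0.416). Over the list of 12 genes 7 had no overlap, 6 of them higher, beside 18.7% of all genes. By limma 0 of 12 passed, against 7 at an unadjusted p under 0.05 (13.6% of all genes) and 1 by the Bayesian test (1.65% of all genes).

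**Figure D4:**
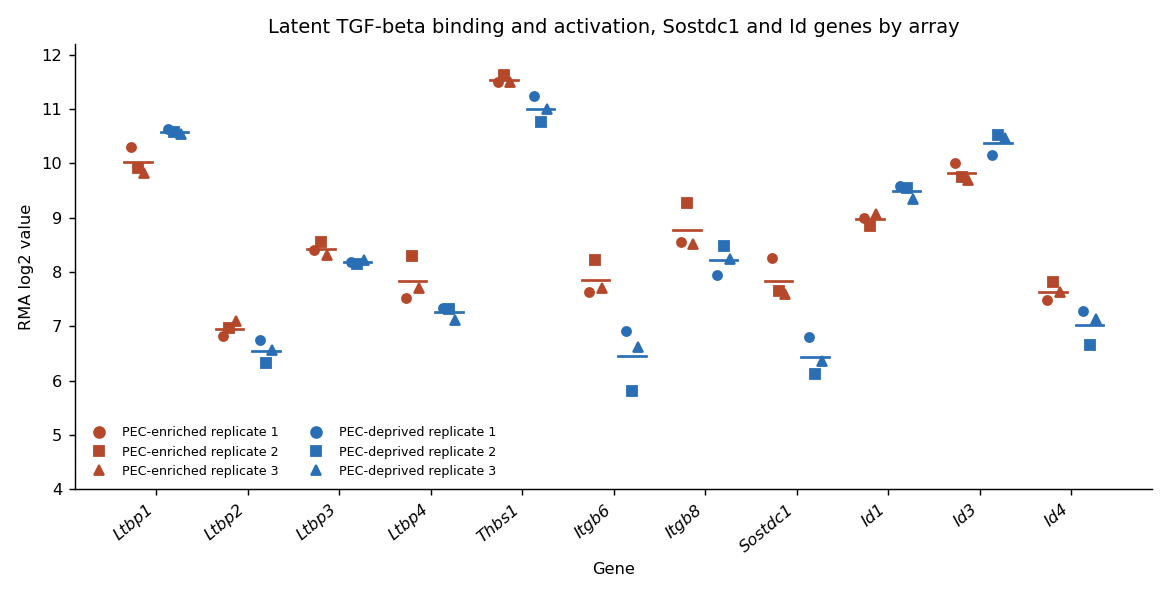
RMA log2 value (y axis) of the Ltbp genes, of genes whose products activate latent TGF-beta, of Sostdc1 and of the Id genes with the largest differences (x axis). Each array has 1 point, and short lines mark the group means. Only genes without overlap between the groups are drawn, a pattern seen in 18.7% of all genes. Others of the same pathway lists, such as Fbn1, Furin and Id2, overlap and are left out. PEC-enriched arrays lie lower in Ltbp1, Id1 and Id3 and higher in the other 8 genes.

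Receptors went both ways. Of 16 measured, 7 means were higher and 9 lower, and the median difference was -0.06. By limma 0 of 16 passed, 4 had an unadjusted p under 0.05, all lower, beside 13.6% of all genes, and the Bayesian test called 0, beside 1.65%. The groups did not overlap in 4 of 16, beside 18.7% of all genes. These were Acvrl1, the type II receptors Bmpr2 (-0.26, limma adjusted p = 0.361) and Acvr2b (-0.24, limma adjusted p = 0.477), all lower, and the type I receptor Acvr1b, higher by 0.17 (limma adjusted p = 0.71, and 0.06 without PEC-enriched replicate 2). Acvrl1, the type I receptor ALK1 of endothelium, was at 10.41, 9.84 and 9.73 in PEC-enriched and at 10.48, 10.63 and 10.50 in PEC-deprived replicates. Its difference was -0.54 (95% interval -0.94 to -0.14, limma adjusted p = 0.327), and it ran from -0.75 without PEC-enriched replicate 1 (limma adjusted p = 0.0712) to -0.41 over the arrays left out. Eng, the endothelial co-receptor endoglin, had a difference of -0.41 (limma adjusted p = 0.41), and ran from -0.60 without the same array to -0.30. PEC-enriched replicate 1 was near the PEC-deprived arrays in both genes, as it was in Pecam1 and Kdr, which define endothelium (11.38 and 12.32, against 10.86 and 11.65 in PEC-enriched replicate 2). Bmpr1a, a type I receptor for BMP2 and BMP4, had a higher mean by 0.28 with overlapping groups (limma adjusted p = 0.506). For Tgfbr1, the type I receptor for TGF-betas, the difference was 0.18 (95% interval -0.08 to 0.43, limma adjusted p = 0.699).

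Inside the cell, the receptor-activated SMADs differed by at most 0.24 in absolute value, with 0.01 for Smad3, -0.03 for Smad2, -0.16 for Smad1, -0.19 for Smad5 and -0.24 for Smad9. Without PEC-enriched replicate 3 Smad9 was at -0.11 and Smad5 at -0.05. Smad7, an inhibitory SMAD induced by both branches, had a difference of -0.40 without overlap (limma adjusted p = 0.382), and Smurf2, a ubiquitin ligase that works with SMAD7, had a difference of -0.31 (limma adjusted p = 0.437).

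Target genes went both ways. The BMP targets Id1 and Id3 encode inhibitors of basic helix-loop-helix factors. Id1 lay between 8.85 (replicate 2) and 9.07 (replicate 3) in PEC-enriched arrays and was at 9.58, 9.55 and 9.35 in PEC-deprived replicates, a difference of -0.52 (95% interval -0.76 to -0.28, limma adjusted p = 0.171). Id3 was at 10.01, 9.75 and 9.69 in PEC-enriched and at 10.15, 10.52 and 10.47 in PEC-deprived replicates, a difference of -0.56 (95% interval -0.87 to -0.25, limma adjusted p = 0.214). In both genes every PEC-enriched array lay below every PEC-deprived array, and the related Id4 stood the other way round, at 0.62 (95% interval 0.22 to 1.01, limma adjusted p = 0.274). Of 11 BMP targets 5 were lower and 1 higher without overlap, beside 18.7% of all genes in either direction. By limma 0 passed, with 5 at an unadjusted p under 0.05 (13.6% of all genes) and 0 by the regularised Bayesian test (1.65% of all genes). Of 10 TGF-beta targets 4 had a higher and 6 a lower mean. Without overlap 2 were higher, Tagln and Thbs1 (0.54), and 1 lower, Smad7 (-0.40), beside 18.7% of all genes in either direction. At an unadjusted limma p under 0.05 there were 2 higher and 1 lower (13.6% of all genes). Past an adjusted p under 0.01 there were 0 by limma and 1 by the regularised Bayesian test (1.65% of all genes). Tagln, the smooth muscle protein transgelin, was at 8.01, 8.61 and 8.22 in PEC-enriched and at 7.66, 7.57 and 7.45 in PEC-deprived replicates, a difference of 0.72 without overlap (limma adjusted p = 0.183, regularised Bayesian test adjusted p = 0.00608). Ccn2, Col1a1, Fn1 and Tgfbi, which respond to TGF-beta in matrix-forming cells, had differences between -0.24 and 0.24 with overlapping groups. Those of Col1a1 and Tgfbi changed direction with an array left out. Fn1 was at -0.57 (limma adjusted p = 0.093) and Ccn2 at 0.42 (limma adjusted p = 0.228) without PEC-enriched replicate 1. Without PEC-enriched replicate 2 they were at -0.05 and 0.14. Mesangial and smooth muscle markers as a whole had a median of -0.15, with 4 of 11 higher, and their part in the Tagln values was not tested.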

How the data were processed

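Glomerular RNA of 3 PEC-enriched and 3 PEC-deprived isolates was hybridized to 1 array each. The authors deposited 1 log2 value per probeset and array, made with RMA (background adjustment, quantile normalization and summarization), which the submitters' notes also name. The software version and the probeset definition were not found in the sources used here. Values run from 2.13 to 13.87. No scanner file or detection call was used, so signal over background is unknown. Precision is limited by there being 3 arrays a group.

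Of 29215 probesets 15310 are annotated with 1 gene symbol (platform annotation of 2016, set against current RefSeq symbols by Entrez ID, with 0 symbols changed), 323 with several and 13582 with none. A gene is its brightest probeset over 6 arrays, which gave 14506 genes. Groups were compared with limma 3.58.1 in R 4.3.3 (a two-sided moderated test from lmFit and eBayes without covariates) over all probesets, with Benjamini-Hochberg adjustment and the study's threshold of 0.01. The methods name a Bayesian t-test without its settings, so these were set here. Each group variance was weighted (prior weight 10) with the squared mean SD of 101 probesets of similar level. limma and the Bayesian test were both tested on simulated data drawn with limma's own moderated variances, which favours limma. The share of false calls exceeded the threshold of 0.01 in all 5 runs of both tests, and by more in the Bayesian test. p-values measure the spread between these arrays.

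The genes and lists were chosen with earlier results of these data known. Named are the genes given at the outset, of each pathway list the 3 with the largest absolute difference, the 3 genes nearest in pattern to each gene ranging over more than 1 log2 unit, and defining markers. Ltbp2, Ltbp3, Itgb8, Tgfbr1, Smad1, Smad2, Smad3, Smad5, Ccn2, Col1a1, Fn1 and Tgfbi were added after their values were seen, as were Bmpr2, Acvr2b and Acvr1b. Alternatives were an intensity trend, blocking on the replicate number, the Bayesian test, probesets above the median level, probesets with 1 symbol, cyclic loess, median centring, an adjusted p under 0.05, the mean of a gene's probesets and each array left out. Arrays were compared before averaging, and correlations lay between 0.9816 and 0.9937. Figures were drawn with matplotlib 3.10.9.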

Additional observations from a re-analysis of the deposited data

How the results depend on the processing

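The count of ligands and Grem1 past an adjusted p under 0.01 was 0 of 8 under every alternative, and 0 of 8 also at an adjusted p under 0.05. The count of pathway genes was 0 of 94 under all but the regularised Bayesian test, which called 3 (Itgb6, Sostdc1 and Tagln). With single arrays left out both counts ran from 0 to 0. Over 56 named genes, only leaving out arrays changed a direction. Leaving out single arrays moved Bmp4 between -0.40 and 0.15 (-0.55 without both PEC-enriched replicate 1 and PEC-deprived replicate 1, chosen after seeing the data), Grem1 between -0.02 and 0.25, Bmp2 between -0.59 and -0.06, Bmp6 between -0.42 and -0.06 and Tgfb2 between -0.41 and -0.05, and the first 2 of these turned without PEC-deprived replicate 3 (0.15 and -0.02). Directions also turned for Smad3 (-0.05 to 0.06, and -0.05 without both replicates 1), Col1a1 (-0.44 to 0.27), Tgfbi (-0.18 to 0.01, and -0.22 without both), Itga4 (-0.49 to 0.03, and -0.56 without both), Cdca7 (-0.27 to 0.04) and E2f1 (-0.29 to 0.06). Leaving out 1 array moved 31 of the 56 by over 1.5 times, Bmp7, Tgfb1 and Bmpr1a (0.17 to 0.39) among them. The cause was not tested. Grem1, Inhbc, Nog, Tgfbi, Csf3r and E2f1 were not above the median level and have no value under that filter. With the replicate number as a block the counts were 0 of 8 and 0 of 94. Deviations of same-numbered arrays correlated by -0.029, 0.052 and 0.1, so the numbers were not taken to pair the arrays. Signal over background and detection are unknown, which limits Grem1 most.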
